A study of Mus musculus with 56 samples.

Results

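The mouse liver transcriptome was examined for heat shock factor 1 (Hsf1) and 9 heat shock protein genes, namely Hspa1a, Hspa1b, Hspa8, Hsph1, Dnajb1, Hsp90aa1, Hsp90ab1, Hspd1 and Hspe1. The members were taken by symbol, through the GENCODE annotation of their gene identifiers, and all 10 were found among the 25415 genes listed in the deposited table. Livers came from 56 female C57BL/6J mice aged 9 weeks, which had spent 7 days on normal chow offered in the light phase only (daytime-restricted feeding, DRF) or in the dark phase only (nighttime-restricted feeding, NRF, the control regimen). Light was given for 12 h a day, and 4 animals per regimen were killed at each zeitgeber time (ZT, in hours from the start of light), namely 0, 4, 8, 12, 16, 20 and 24, which gave 14 groups and 28 libraries per regimen. Libraries were stranded and depleted of ribosomal RNA per the protocol text, although the molecule field names polyA RNA. Replicates with the same number were different animals, and no cage, batch or date was given, so that a difference between cages or batches cannot be told apart from a difference between groups.

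Heat shock proteins are chaperones that bind unfolded or newly made proteins. HSF1 is the transcription factor that switches many of their genes on. It is held inactive by chaperones in resting cells, and under heat or other protein-damaging stress it forms trimers and binds heat shock elements, which are inverted repeats of the unit GAA. In the liver, body temperature and food intake both change over the day, and several heat shock genes are textbook examples of transcripts that follow such systemic cues.

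The elements are shown first because they are the sequence feature by which HSF1 recognises its targets. A total of 6 members (Hspa1a, Hspa1b, Hsph1, Dnajb1, Hspd1 and Hspe1) had a promoter in the RefSeq promoter table (GRCm38.p6), and the 250 bases before each start were searched. The motifs were GAANNTTC or TTCNNGAA for 2 inverted units, and TTCNNGAANNTTC or GAANNTTCNNGAA for 3 units, which contain the former. Both strands are covered because each pair holds its own reverse complement. At least 2 units were present in 5 of the 6 members and in 12.8% of all 32851 windows, and 3 units in 2 members and in 0.466% of windows. These counts are not on equal terms, because a member with several windows counted when any of them matched, while the shares are per window. Hspd1, for instance, also had a window without a match. The 2 members with at least 3 units, Hspd1 and Hspe1, hold the same element, in which 2 overlapping 3-unit matches form a longer run. The matching stretches are given on the strand of the gene, with the match in capitals.
Hspa1a (chr17:34972242-34972271, minus strand): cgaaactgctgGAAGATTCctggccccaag
Hspa1b (chr17:34959324-34959353, minus strand): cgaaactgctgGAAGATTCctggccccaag
Hsph1 (chr5:149636351-149636380, minus strand): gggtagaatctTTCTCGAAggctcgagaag
Hspd1 (chr1:55088053-55088082, minus strand): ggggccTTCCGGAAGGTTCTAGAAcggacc
Hspe1 (chr1:55088053-55088082, plus strand): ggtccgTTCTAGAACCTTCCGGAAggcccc
The Hspa1a and Hspa1b stretches were identical, and their promoters had the same base at 247 of 250 positions. Hspd1 and Hspe1 lie head to head, and their lines show the same element read from opposite strands. Dnajb1 had no match in either of its windows. A match is a description of the letters and not evidence of binding.

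Values are given as scaled counts, a library-scaled form of the counts behind the deposited values. They summed to between 889718 and 1117740 in each library, so that 1 unit is close to 1 part in 1000000. Means are followed by the SD over the 4 libraries of a group. Per kilobase of exon and over all 56 libraries, the mean level was highest for Hspd1 (HSP60, the chaperonin of the mitochondrial matrix) at 109.9 ± 16.4 scaled counts per kilobase. Hsp90ab1 (89.8 ± 27.4), Hspa8 (67.1 ± 37.1), Hsp90aa1 (21.1 ± 15.04) and Hspe1 (8.07 ± 6.01) followed in level per kilobase. The other 5 were lower, with Hsph1 at 3.98 ± 3.24, Hspa1b at 1.39 ± 1.87, Dnajb1 at 1.38 ± 0.555, Hsf1 at 0.665 ± 0.117 and Hspa1a at 0.259 ± 0.313 scaled counts per kilobase. Every pair of neighbours in this order overlapped in its range over libraries.

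In the GRCm38 annotation (GENCODE vM21), the factor gene is Hsf1 (ENSMUSG00000022556) at chr15:76477422-76501913 on the plus strand. The HSP70 genes are Hspa1a (ENSMUSG00000091971) at chr17:34969190-34972156 on the minus strand, Hspa1b (ENSMUSG00000090877) at chr17:34956436-34959238 on the minus strand and Hspa8 (ENSMUSG00000015656) at chr9:40800984-40810087 on the plus strand. Their partners are Hsph1 (ENSMUSG00000029657) at chr5:149614287-149636376 on the minus strand and Dnajb1 (ENSMUSG00000005483) at chr8:83608193-83612653 on the plus strand. The HSP90 genes are Hsp90aa1 (ENSMUSG00000021270) at chr12:110690605-110702728 on the minus strand and Hsp90ab1 (ENSMUSG00000023944) at chr17:45567775-45573271 on the minus strand. The mitochondrial pair is Hspd1 (ENSMUSG00000025980) at chr1:55077835-55088243 on the minus strand and Hspe1 (ENSMUSG00000073676) at chr1:55088132-55091307 on the plus strand. Each value covers all exons of its gene.

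Some members share sequence with other genes, which limits how their reads can be assigned. Of all 100-base windows of its transcripts, Hspa1a shared 47.1% with Hspa1b, and Hspa1b shared 49.9% with Hspa1a. Hsp90aa1 shared 31.6% with Gm12346, Hspa8 26.3% with Gm15459, Hspd1 22.4% with Hspd1-ps3 and Hspe1 10% with AC117239.2. The other 4 members shared no window. Hspa1a and Hspa1b are therefore given singly and as a sum. In addition, 19.01% of the exon bases of Hspa1a are overlapped by Gm20481 on the opposite strand. Also on opposite strands, Hspd1 overlaps 7.6% of the exon bases of Hspe1, and Hspe1 overlaps 4.24% of those of Hspd1. On the same strand, Snord14c, Snord14d and Snord14e each overlap 2% to 2.09% of the exon bases of Hspa8. The use of strand in counting was not given in the sources used here.

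In most of the genes, the highest level fell 4 h into the hours of food in both regimens (ZT4 in DRF animals, ZT16 in NRF animals). The highest group mean was at ZT4 under DRF in 9 of the 10 members, against 17.4% of all genes, and at ZT16 under NRF in 6 members, against 16.3% of all genes. Both held for Hspa1a, Hspa1b, Hspa8, Hsph1, Dnajb1 and Hspd1, which makes 6 members, against 3.53% of all genes. Hsp90aa1 and Hsp90ab1 were highest at ZT20 under NRF, Hspe1 at ZT0 under NRF, and Hsf1 at ZT20 in both regimens. For Hsp90aa1 this rested on a single low library, NRF ZT16 replicate 3. Without that library its NRF mean was 213 ± 57.3 (SD, n = 3) at ZT16, above the 175 ± 30.2 at ZT20. Hsp90aa1 would then join the members for which both held. Because these are bulk livers, less RNA per cell and fewer cells of a type cannot be told apart.

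**Figure D1:**
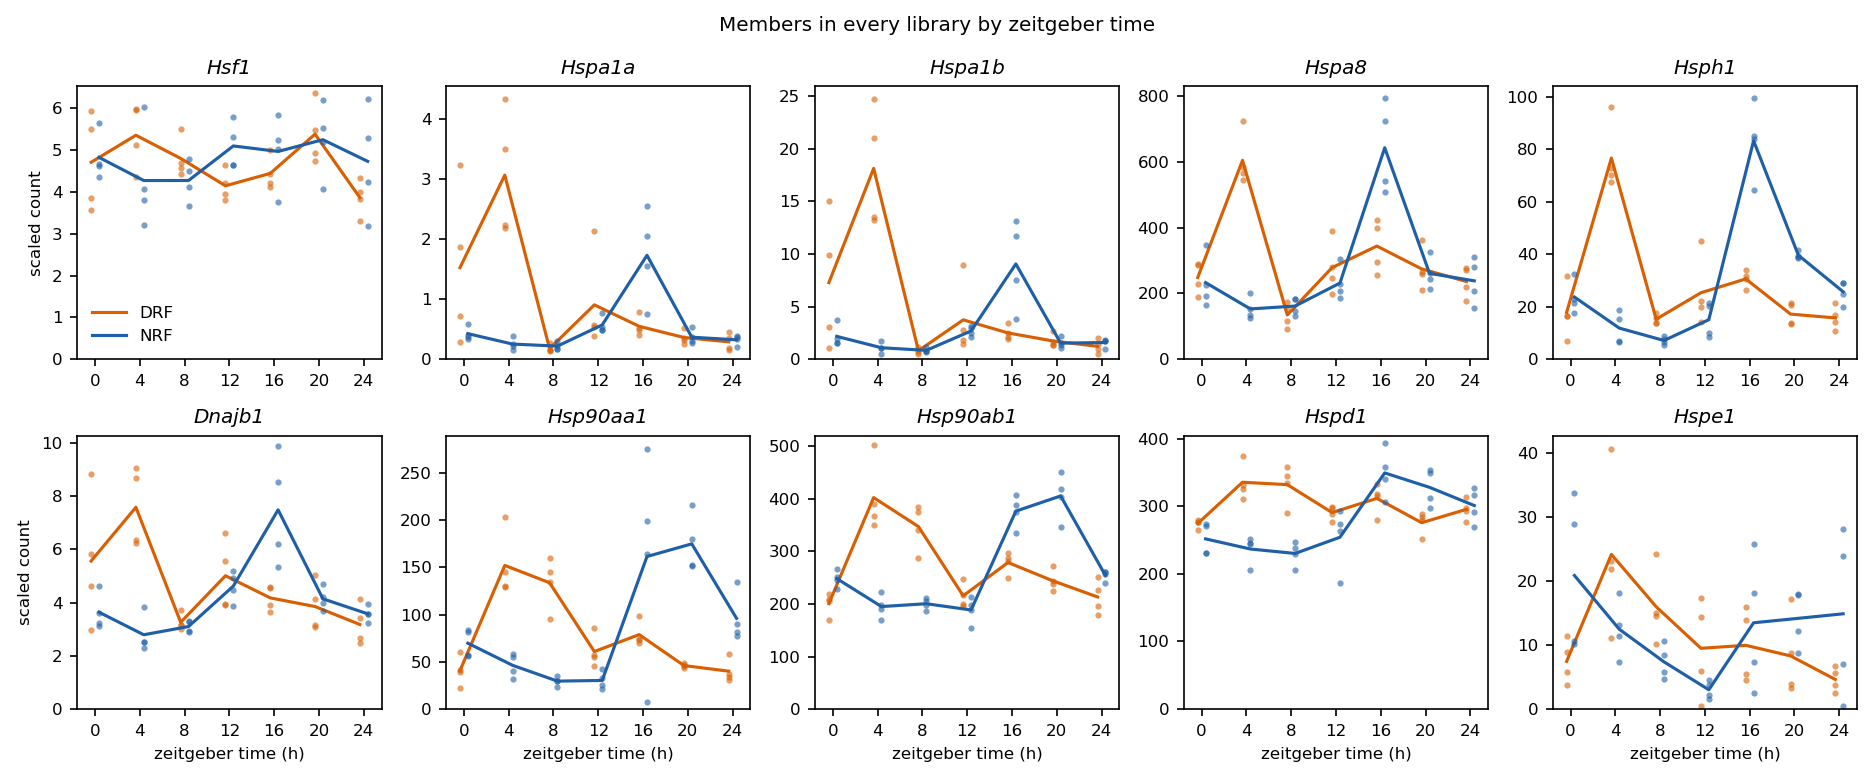
Scaled counts (vertical axis, linear) of the 10 genes against zeitgeber time in hours (horizontal axis), with one point per library and lines through the means of the 4 libraries of each group, DRF in orange and NRF in blue. Points are set slightly left or right of their time for legibility. Hspa1a, Hspa1b, Hspa8, Hsph1 and Dnajb1 are highest at ZT4 in orange and ZT16 in blue, Hsp90aa1 and Hsp90ab1 show broader maxima, and Hsf1 shows no change that passed the test.

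Whether levels changed over the day at all was tested within each regimen over the 7 times (limma F test on log2(scaled count + 1), Benjamini-Hochberg adjusted over 25414 genes). Under DRF 8 of 10 members changed, against 40.5% of all genes, and under NRF 8 of 10, against 44.6%. The same 8 genes passed in both regimens, with adjusted p between 1.22e-10 (Hsp90ab1) and 0.0345 (Hspd1) under DRF, and between 4.42e-13 (Hsp90ab1) and 3.26e-04 (Hspa1a) under NRF. The exceptions were Hsf1 (adjusted p = 0.138 under DRF and 0.534 under NRF) and Hspe1 (0.102 and 0.0798). The call for Hspd1 under DRF was lost without any 1 of 7 libraries (DRF ZT0 replicate 1, ZT4 replicates 3 and 4, ZT8 replicates 1, 2 and 4 and ZT20 replicate 1), with adjusted p between 0.0517 and 0.0826, and with the length trend removed (0.0731). Hspe1 passed under NRF without any 1 of 4 libraries (0.0164 to 0.0482) and under DRF without NRF ZT24 replicate 3 (0.0386). Leaving out a replicate number throughout removes 14 libraries, 1 from each group. This ended the DRF call of Hsp90aa1 (replicate 4, adjusted p = 0.0826) and that of Hspd1 (replicate 1, 2 or 4, 0.07498 to 0.342), and Hspe1 passed in both regimens without replicate 3 (0.0307 and 0.0329).

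Hsf1, the factor itself, varied little. Its levels lay between 3.31 and 6.37 scaled counts over the 28 DRF libraries (median 4.502) and between 3.18 and 6.21 under NRF (median 4.65). At ZT4 the 4 libraries had 4.35, 5.12, 5.97 and 5.96 under DRF and 3.8, 3.197, 6.02 and 4.06 under NRF. These groups overlapped through NRF replicate 3. The log2 difference between DRF and NRF at ZT4 was 0.29 ± 0.14 (SE), with a 95% interval of 0.00 to 0.57 and adjusted p = 0.155. Without NRF ZT4 replicate 3 it was 0.43, with adjusted p = 0.0232. At the other 6 times the log2 difference of Hsf1 lay between -0.24 (ZT12) and 0.14 (ZT8), and none passed. The transcript level says nothing of the activity of the protein, which is set after translation.

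Hspa1a and Hspa1b encode the stress-inducible HSP70 of the cytosol. Under DRF they had the widest range of the members, with the highest group mean 17.3 and 22.4 times the lowest, while under NRF that ratio was 7.895 and 10.7, below the 11.7 of Hsph1. At ZT4, Hspa1b had 24.8, 13.6, 13.2 and 21.01 scaled counts in the 4 DRF libraries. At the same time it had 1.102, 0.5297, 1.697 and 1.04 under NRF. The groups were far apart, with means in a ratio of 16.6 and a log2 difference of 3.17 ± 0.38 (adjusted p = 1.71e-08). At ZT16 the order was the opposite, with 11.7, 13.2, 7.53 and 3.85 under NRF and 2.48, 3.43, 1.94 and 2.15 under DRF. The lowest NRF library still lay above the highest DRF library, and the log2 difference was -1.43 ± 0.38 (adjusted p = 0.00679). That call was lost without replicate 3 of every group (0.0712). After the peak, under DRF the mean went from 18.1 ± 5.69 at ZT4 to 0.8104 ± 0.299 at ZT8, and under NRF from 9.06 ± 4.21 at ZT16 to 1.53 ± 0.474 at ZT20.

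Hspa1a followed the same course at lower values. It had 4.34, 2.23, 2.19 and 3.498 scaled counts at ZT4 under DRF and 0.261, 0.1499, 0.381 and 0.217 under NRF, with no overlap. The log2 difference of 1.67 ± 0.21 (adjusted p = 8.21e-08) is on the log2(scaled count + 1) scale, which understates the ratio of 12.1 between the means. At ZT16 it had 2.05, 2.56, 1.56 and 0.757 under NRF and 0.525, 0.7796, 0.404 and 0.485 under DRF, groups that overlapped through NRF replicate 4 (log2 difference -0.78 ± 0.21, adjusted p = 0.00926). That call was lost without NRF ZT16 replicate 2 (adjusted p = 0.0519) and without replicate 1 or 3 of every group (0.0558 and 0.102). Summed over both copies, the ZT4 means were 21.2 ± 6.74 under DRF and 1.34 ± 0.574 under NRF, with a log2 difference of 3.23 ± 0.39 (adjusted p = 2.17e-08), so the result did not rest on how reads were split between the copies.

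The animals at ZT0 under DRF, at the start of the food period, differed widely among themselves. Hspa1b had 1.03, 15.02, 9.95 and 3.105 scaled counts there, Hspa1a had 0.284, 3.23, 1.87 and 0.717, and both were low in replicate 1 and high in replicate 2. One cycle later, at ZT24, Hspa1b had 0.523, 1.41, 0.961 and 2.01. ZT24 was lower than ZT0 under DRF for Hspa1b (log2 difference -1.52 ± 0.38, adjusted p = 0.0184) and Hspa1a (-0.82 ± 0.21, adjusted p = 0.0236). These were 2 of 10 members, against 3.05% of all genes (1.64% lower), and both calls were lost without DRF ZT0 replicate 2 (adjusted p = 0.126 and 0.167), without DRF ZT0 replicate 3 (0.116 and 0.117) or without DRF ZT24 replicate 1 (0.0713 and 0.0706). The call for Hspa1a was lost also without DRF ZT24 replicate 3 (0.0629). Dnajb1 was just outside the threshold (-0.59 ± 0.18, adjusted p = 0.0533) and passed without any 1 of 6 libraries (0.00621 to 0.049), with median-of-ratios scaling (0.0438), at a mean scaled count of at least 1 (0.0356) and with the length trend removed (0.0307). Under NRF the ZT24 and ZT0 levels differed in 0 of 10 members by limma (1 at an unadjusted p below 0.05, Hspd1), against 7.79% of all genes. Hspd1 passed without NRF ZT12 replicate 3 (0.0309) and with the length trend removed (0.00323). The summed level of 9 immediate early genes, which respond within minutes to stimulation, was 63.3 ± 8.001 at DRF ZT0, 23.8 ± 5.96 at DRF ZT24 and 36.6 ± 8.48 at NRF ZT0. Its part in the ZT0 levels was not tested.

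Hspa8 encodes the constitutive HSP70 (HSC70), Hsph1 an HSP110 protein that exchanges the nucleotide of HSP70, and Dnajb1 an HSP40 protein that hands clients to HSP70. Hsph1 had 72.7, 67.5, 70.3 and 96.2 scaled counts at ZT4 under DRF and 18.9, 6.48, 15.3 and 6.85 under NRF. The groups did not overlap (ratio of means 6.46, log2 difference 2.71 ± 0.31, adjusted p = 6.58e-09). At ZT16 it had 83.9, 99.5, 85.2 and 64.6 under NRF and 31.7, 33.9, 26.5 and 30.5 under DRF, again with no overlap (log2 difference -1.40 ± 0.31, adjusted p = 0.00109). Under DRF, Hsph1 had a second, lower maximum in the dark, with means of 15.3 ± 1.78 at ZT8, 25.4 ± 13.6 at ZT12, 30.6 ± 3.11 at ZT16 and 17.2 ± 4.29 at ZT20.

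Hspa8 had 584, 544, 564 and 724 scaled counts at ZT4 under DRF and 152, 124, 201 and 134 under NRF, with no overlap (ratio of means 3.95, log2 difference 1.99 ± 0.23, adjusted p = 9.16e-09). At ZT16 it had 542, 795, 725 and 508 under NRF and 398, 424, 257 and 296 under DRF (log2 difference -0.90 ± 0.23, adjusted p = 0.00486, and 0.0748 without replicate 3 of every group). As in Hsph1, the mean under DRF was lowest at ZT8 (134 ± 36.6) and had a second maximum at ZT16 (344 ± 79.9). Dnajb1 had 9.05, 6.36, 6.25 and 8.69 at ZT4 under DRF and 2.51, 2.304, 3.84 and 2.52 under NRF, with no overlap (log2 difference 1.18 ± 0.18, adjusted p = 1.85e-06). Its 4 NRF libraries at ZT16, with 8.53, 9.89, 5.33 and 6.199, lay above the DRF libraries, with 4.59, 4.53, 3.66 and 3.93 (log2 difference -0.68 ± 0.18, adjusted p = 0.00548).

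The cytosolic HSP90 genes, Hsp90aa1 (the inducible form) and Hsp90ab1 (the constitutive form), were still high at ZT8 under DRF. Hsp90ab1 had 367, 350.0, 389.7 and 502 scaled counts at ZT4 and 385, 341, 288 and 374 at ZT8 under DRF. The NRF libraries had 197, 190.5, 223 and 169.8 at ZT4 and 197, 212, 206 and 187 at ZT8. No library overlapped at either time, and the log2 differences were 1.03 ± 0.11 (adjusted p = 7.64e-10) and 0.78 ± 0.11 (8.13e-07). Under NRF the mean was 376 ± 30.6 at ZT16 and 405 ± 43.9 at ZT20, against 279 ± 20.8 and 244 ± 19.9 under DRF. Both differences passed, with log2 differences of -0.43 ± 0.11 (0.00413) and -0.73 ± 0.11 (2.25e-06).

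Hsp90aa1 had 130.5, 129.7, 145 and 204 scaled counts at ZT4 under DRF and 58.2, 40.3, 55.2 and 31.6 under NRF, with no overlap (log2 difference 1.71 ± 0.49, adjusted p = 0.00851). At ZT8 it had 145, 159.9, 95.1 and 135 under DRF and 34.95, 30.3, 29.8 and 23.4 under NRF (2.13 ± 0.49, adjusted p = 0.00164). At ZT16 the NRF libraries had 276, 199, 7.55 and 164. Replicate 3 stood 21.7-fold below the next of its group and below all 55 other libraries, in which Hsp90aa1 was at least 21.4. Gm12346, which shares sequence with Hsp90aa1, had 3.49, 2.84, 0.444 and 2.45 scaled counts in the same libraries and was lowest in the same animal. With this library, the ZT16 difference was -0.25 ± 0.49 (adjusted p = 0.809). Without it, the NRF mean was 213 ± 57.3 (SD, n = 3) and the difference -1.40 ± 0.26 (adjusted p = 1.37e-04). Because the spread is shared over groups, this library also decided Hsp90aa1 at ZT0, ZT12 and ZT24, where the adjusted p was 0.306, 0.188 and 0.0846 with it and 0.0124, 0.00232 and 1.49e-04 without it. At ZT20 Hsp90aa1 was lower under DRF (46.5, 43.7, 48.4 and 45.8) than under NRF (151, 216, 153 and 179.6), with a log2 difference of -1.89 ± 0.49 (adjusted p = 0.00498).

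The mitochondrial chaperonin consists of HSP60 (Hspd1) and its lid HSP10 (Hspe1), whose genes share 1 promoter region. Hspd1 changed little in size and with a small spread. It had 326, 311, 331 and 374 scaled counts at ZT4 under DRF and 243, 252, 246 and 205 under NRF, groups that did not overlap (ratio of means 1.42, log2 difference 0.50 ± 0.09, adjusted p = 6.81e-05). At ZT8 the log2 difference was 0.53 ± 0.09 (adjusted p = 6.57e-05). At ZT16 it had 306, 358, 394 and 339.9 under NRF and 315, 280.1, 318 and 333 under DRF, which overlapped, and the difference did not pass (-0.16 ± 0.09, adjusted p = 0.272).

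Hspe1 varied most between replicates. Its median coefficient of variation within a group was 48.1%, against 8.28% for Hspd1 and a median of 8.96% over all genes with a mean of at least 10 scaled counts. At ZT4 it had 40.7, 11.1, 21.9 and 23.2 scaled counts under DRF and 7.33, 13.2, 18.1 and 11.4 under NRF, which overlapped (log2 difference 0.83 ± 0.67, 95% interval -0.53 to 2.19, adjusted p = 0.442). At none of the 7 times did Hspe1 pass, and its intervals also held differences of the size seen in Hsph1 at ZT8. Hspe1 has the shortest exons of the members, at 1474 bases.

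Across the members, DRF and NRF were next compared at each time, with BH adjustment over all genes. At ZT4, when only the DRF animals had food, 8 of 10 members were higher under DRF and 0 lower, against 20.3% of all genes called (10.8% higher). The exceptions were Hsf1 and Hspe1. The median log2 difference was 1.42 over the members and -0.0032 over all genes. At ZT8, 4 members were higher (Hsp90aa1, Hsp90ab1, Hspd1 and Hsph1), against 13% of all genes (5.74% higher). The call for Hsph1 there (1.01 ± 0.31, adjusted p = 0.0226) was lost without DRF ZT8 replicate 1 or 3 or NRF ZT8 replicate 1 or 3 (0.0515 to 0.0813), and without replicate 1, 3 or 4 of every group (0.06398 to 0.174). The ZT4 call of Hsp90aa1 was lost without replicate 2 or 4 of every group (0.0644 and 0.166).

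In the dark the direction turned. At ZT16, 6 members were lower under DRF (Hspa1a, Hspa1b, Hspa8, Hsph1, Dnajb1 and Hsp90ab1) and 0 higher, against 15.1% of all genes (6.37% lower). At ZT20, 3 were lower (Hsp90aa1, Hsp90ab1 and Hsph1), against 13.7% (6.04% lower). Hspd1 joined them without NRF ZT12 replicate 3 (0.0255) or NRF ZT20 replicate 1 (0.0486), with median-of-ratios scaling (0.0235), at a mean scaled count of at least 1 (0.0498) and with the length trend removed (0.03395). Hsph1 had 13.3, 21.3, 13.7 and 20.5 scaled counts at ZT20 under DRF and 38.4, 41.8, 39.5 and 38.9 under NRF (log2 difference -1.19 ± 0.31, adjusted p = 0.00559). With replicate 3 of every group left out Hsph1 did not pass at ZT20 (0.0653), nor did Hsp90aa1 with replicate 2 or 4 left out (0.0833 and 0.0579). The members that differed at ZT8 and ZT20 therefore included both HSP90 genes and Hsph1 but not the HSP70 genes or Dnajb1, whose adjusted p at these 2 times was at least 0.5305.

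At the turns of the light the counts were too small to set the members apart from all genes. At ZT0, 2 of 10 passed, against 16% of all genes, namely Hspa1a, which was higher under DRF (against 7.96%, log2 difference 0.68 ± 0.21, adjusted p = 0.0228), and Hsp90ab1, which was lower (against 8.03%, log2 difference -0.31 ± 0.11, 0.0416). The call for Hspa1a was lost without DRF ZT0 replicate 2 or 3 or NRF ZT0 replicate 1 or 2 (0.0533 to 0.245), and that for Hsp90ab1 without DRF ZT0 replicate 1 or 4 or NRF ZT0 replicate 1, 3 or 4 (0.0594 to 0.208). Neither passed without replicate 2 or 3 of every group, nor Hsp90ab1 without replicate 1 or 4 (0.0573 to 0.402 over these). Without DRF ZT0 replicate 1 the differences of Hspa1b (1.55, adjusted p = 0.0016) and Dnajb1 (0.65, 0.00712) passed, and that of Hspa1b passed also without any 1 of 3 other libraries. At ZT12 and at ZT24, 0 of 10 members passed by limma, with 3 each at an unadjusted p below 0.05, against 15.2% and 14% of all genes. Besides Hsp90aa1, Hspd1 passed at ZT12 without NRF ZT12 replicate 2 (0.0447) and Hsp90ab1 at ZT24 without DRF ZT24 replicate 3 (0.0359). With a replicate number left out of every group, Hsph1 passed at ZT12 (replicate 1, 0.0207) and Hspe1 at ZT24 (replicate 3, 0.0498).

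**Figure D2:**
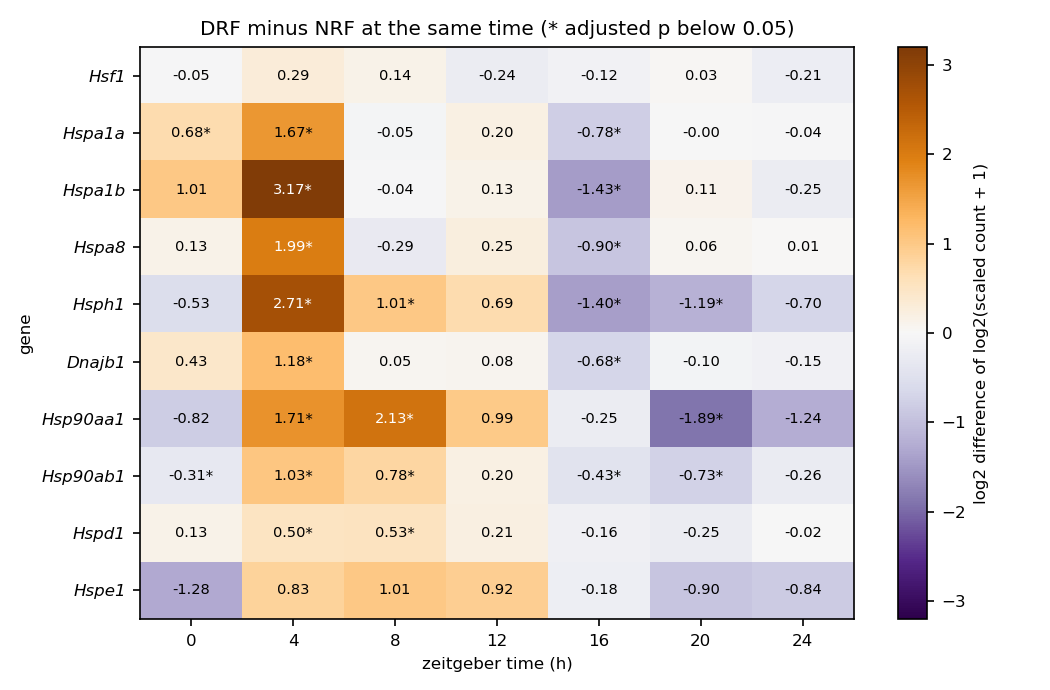
Log2 difference between DRF and NRF (DRF minus NRF, means of log2(scaled count + 1) over 4 libraries each) for each gene (rows) at each zeitgeber time in hours (columns), in orange where DRF was higher and purple where NRF was higher. A star marks an adjusted p below 0.05. Differences in the light at ZT4 run up to 3.17 in Hspa1b, and those in the dark down to -1.89 in Hsp90aa1.

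To compare the regimens at the same stage of feeding, each DRF group was set against the NRF group 12 h apart. At 4 h into the food period (DRF ZT4 against NRF ZT16), 0 of 10 members differed by limma (2 at an unadjusted p below 0.05), against 14.6% of all genes. The median log2 difference was 0.09 over the members and 0.0022 over all genes. For Hsph1 the difference was -0.12 ± 0.31 with a 95% interval of -0.74 to 0.51, for Hspa8 -0.07 ± 0.23 (-0.54 to 0.40), for Dnajb1 0.03 ± 0.18 (-0.32 to 0.39) and for Hsp90ab1 0.08 ± 0.11 (-0.13 to 0.30). None of these 4 differences passed. For Hsph1, Hspa8 and Dnajb1 these groups held the highest mean of each regimen, whereas Hsp90ab1 was highest at ZT20 under NRF. Hspa1b had the larger mean at DRF ZT4, 18.1 ± 5.69 against 9.06 ± 4.21 at NRF ZT16, but the difference of 0.99 ± 0.38 did not pass (adjusted p = 0.0702), nor did that of Hspa1a (0.59 ± 0.21, 0.0574). Both passed without DRF ZT0 replicate 1 (0.0343 and 0.0323), DRF ZT0 replicate 2 (0.0442 and 0.0277), DRF ZT12 replicate 4 (0.0464 and 0.034) or NRF ZT16 replicate 2 (0.0428 and 0.0274), and Hspa1a also without DRF ZT4 replicate 2 (0.0466) or 3 (0.044). Hspa1a passed also without replicate 2 of every group (0.0254), and Hspa1b at a mean scaled count of at least 1 (0.0483). The Hspa1b libraries of DRF ZT4 lay just above those of NRF ZT16, with no overlap.

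Later in the food period and during the fast some members differed, in small counts. Whether they differed more there than at 4 h into the food period was not tested. At 8 h into the food period (DRF ZT8 against NRF ZT20), 2 of 10 members were lower under DRF, against 11.5% of all genes (5.09% lower). Hspa8 had 154, 93.2, 174 and 116 scaled counts at DRF ZT8 and 325, 262, 213 and 244 at NRF ZT20 (log2 difference -0.98 ± 0.23, adjusted p = 0.00433, and 0.0565 without replicate 2 of every group). Hsph1 had 17.5, 13.8, 15.9 and 13.9 at DRF ZT8, which was below all 4 libraries of NRF ZT20 (-1.33 ± 0.31, adjusted p = 0.00383). At 4 h into the fast (DRF ZT16 against NRF ZT4), 4 members were higher under DRF and 0 lower, against 17.1% of all genes (9.42% higher). These were Hsph1 (1.42 ± 0.31, adjusted p = 9.38e-04), Hspa8 (1.16 ± 0.23, 3.49e-04), Hsp90ab1 (0.52 ± 0.11, 5.92e-04) and Hspd1 (0.40 ± 0.09, 0.00218). Hsp90aa1 joined them without NRF ZT16 replicate 3 (0.78 ± 0.24, adjusted p = 0.0171), and Dnajb1 without any 1 of 3 libraries (0.0277 to 0.0397), while Hspd1 was lost without replicate 4 of every group (0.0978).

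At 8 h into the fast (DRF ZT20 against NRF ZT8), 3 members were higher under DRF, against 16.4% of all genes (7.86% higher). These were Hsph1 (1.15 ± 0.31, adjusted p = 0.00764), Hspa8 (0.75 ± 0.23, 0.02096) and Hspd1 (0.26 ± 0.09, 0.0495). Hspd1 lay at the threshold and was lost without any 1 of 39 of the 56 libraries (0.0502 to 0.189), and Hspa8 was lost without DRF ZT20 replicate 2 or NRF ZT8 replicate 1 or 2 (0.0541 to 0.104). Hsph1 was lost without replicate 3 or 4 of every group (0.0573 and 0.0555). Hspa8 was lost also without replicate 1, 2 or 4 of every group (0.0629 to 0.181), and Hspd1 with any replicate number left out (0.0664 to 0.305). At the change of feeding state, 0 of 10 members differed by limma, neither when food was given (DRF ZT0 against NRF ZT12, 2.64% of all genes, 1 member at an unadjusted p below 0.05) nor when it was removed (DRF ZT12 against NRF ZT24, 1.6% of all genes, 3 members). Hspa1a and Hspa1b differed between DRF ZT0 and NRF ZT12 without DRF ZT0 replicate 1 (0.026 and 0.0448).

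**Figure D3:**
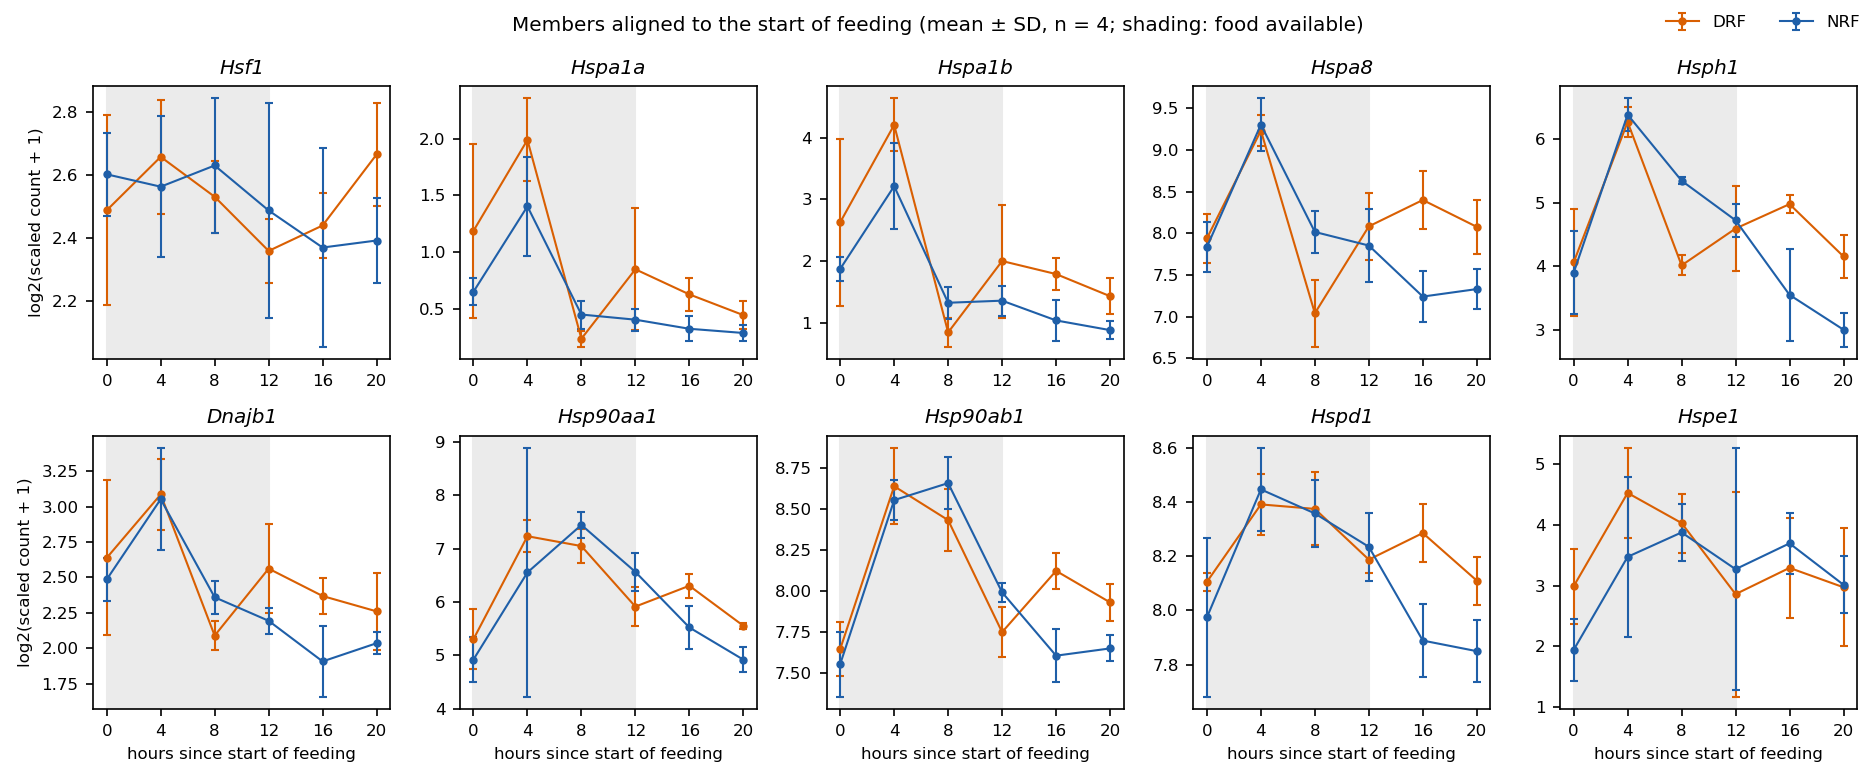
Mean ± SD of log2(scaled count + 1) over 4 libraries (vertical axis) against hours since the start of the food period (horizontal axis), counted from ZT0 under DRF (orange) and from ZT12 under NRF (blue), with the food period shaded. DRF ZT24 and NRF ZT0 are left out so that each stage holds 1 group per regimen, and the vertical axes do not start at 0. The means of Hspa8, Hsph1, Dnajb1 and Hsp90ab1 lie close together at 4 h, while Hspa8 and Hsph1 lie lower under DRF at 8 h and higher at 16 and 20 h. The long bar of Hsp90aa1 at 4 h under NRF comes from 1 library.

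Separately for each regimen (28 libraries), 24-h rhythms were called by combining an exact rank test with a cosinor fit. Under NRF 9 of 10 members were rhythmic, against 44.6% of all genes, with adjusted p between 1.54e-11 (Hsph1) and 0.00774 (Hspe1), and Hsf1 was not (0.355). Under DRF 4 of 10 were rhythmic, against 43.4%. These were Hsp90aa1 (adjusted p = 2.08e-05), Hspd1 (0.00172), Hsp90ab1 (0.01902) and Hspe1 (0.03299). The DRF calls were fragile for Hspe1, which was lost without any 1 of 10 libraries (0.0527 to 0.125), and for Hsp90ab1, which was lost without DRF ZT8 replicate 1 or 4 (0.0622 and 0.0587). Leaving out any replicate number ended the DRF call of Hsp90ab1 (0.0513 to 0.261). Without replicate 1 or 2 that of Hspd1 was lost (0.123 and 0.0518), and without replicate 1 or 4 both calls of Hspe1 (0.118 to 0.7704). On deposited values Hsp90aa1 was the 1 member that passed under DRF, and Hsf1 passed under NRF (0.0124). The HSP70 genes, Hsph1 and Dnajb1 changed over time under DRF but did not pass as 24-h rhythms, with adjusted p of at least 0.259.

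The difference in 24-h rhythm between the regimens was tested directly. It passed in 9 of 10 members, against 38.8% of all genes, with adjusted p from 3.71e-08 (Hsp90ab1) to 0.0258 (Hspe1). For Hsf1 it did not pass (0.327). The call for Hspe1 was lost with pseudocount 0.1 (0.0749), on deposited values (0.3604) and without replicate 1, 2 or 4 of every group (0.0726 to 0.368). That for Hspa8 was lost without replicate 1 or 4 of every group (0.0804 and 0.0625). Leaving out a single library ended none of the 9 calls. The rhythm-adjusted mean differed in 1 of 10 members, against 6.81% of all genes (4.08% higher under DRF). This was Hspd1, which was higher under DRF by 0.14 ± 0.04 (log2, adjusted p = 0.0183), a call lost with median-of-ratios scaling (0.12, adjusted p = 0.0659), with the length trend removed (0.075), on deposited values (0.108) and without replicate 1 or 4 of every group (0.1099 and 0.167). For the other 9 genes the log2 difference of means lay between -0.03 (Hsf1) and 0.29 (Hspa1b).

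The size of the shift was taken from the 4 members that were rhythmic in both regimens, against 27.2% of all genes. For Hsp90ab1 the fitted peak moved from 18.5 h (NRF) to 6.94 h (DRF), a shift of 11.6 h ± 1.05 (SE, 95% interval 9.51 to 13.7). Hsp90aa1 moved from 18.8 to 7.35 h, by 11.5 h ± 0.921 (SE, 95% interval 9.67 to 13.3). Hspd1 moved from 18.2 to 7.58 h, by 10.6 h ± 1.11 (SE, 95% interval 8.45 to 12.8), and Hspe1 from 22.6 to 6.86 h, by 8.22 h ± 1.801 (SE, 95% interval 4.69 to 11.8). Shifts were taken the shorter way round the 24-h cycle and without sign, so that 12 h is the largest possible. That way, the fitted peak of Hspe1 moved later. The intervals of Hsp90ab1, Hsp90aa1 and Hspd1 reach past 12 h, so earlier and later cannot be told apart for them. All 4 shifts were above 8 h, as were those of 49.6% of the 6919 genes rhythmic in both regimens. The amplitude was smaller under DRF for Hspd1, 25.3 against 60.8 scaled counts (adjusted p = 0.04396), which made 1 of 4 members, against 10.7% of those genes. This call was lost without any 1 of 21 libraries (0.0502 to 0.08), with median-of-ratios scaling (0.109) and without replicate 3 or 4 of every group (0.197 and 0.168). On deposited values and without replicate 1 or 2 of every group, Hspd1 was not rhythmic under DRF, so its amplitudes were not compared. Hsp90aa1 (49.5 against 77.01), Hsp90ab1 (67.4 against 113) and Hspe1 (6.49 against 6.46) did not pass. Without NRF ZT16 replicate 3 the shift of Hsp90aa1 was 11.1 h ± 0.823. On the deposited, log-compressed values the fitted shift was 1.58 h for Hspd1 and 9.88 h for Hsp90ab1. Neither gene was rhythmic under DRF on those values, so these fitted shifts are not interpreted.

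Liver heat shock genes are known for rhythms of 12 h, so a 12-h component was fitted beside the 24-h one. A cosine of 24 h alone cannot describe a narrow peak, which also yields a 12-h term, and sampling every 4 h gives 3 points per 12-h cycle. Under DRF the component passed in 6 of 10 members, against 4.69% of all genes. These were Hsp90ab1 (adjusted p = 1.35e-07), Hsph1 (5.97e-05), Hspa8 (3.86e-04), Hspa1b (0.00253), Hspa1a (0.00515) and Hsp90aa1 (0.0416). The 12-h amplitude of Hsph1 on the log2 scale was 0.98, larger than its 24-h amplitude of 0.33, and that of Hspa8 was 0.75 against 0.20. Under NRF the order was the opposite, with 0.48 against 1.505 in Hsph1 and 0.35 against 0.82 in Hspa8.

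Under NRF the 12-h component passed in 1 of 10 members, Hsp90ab1 (adjusted p = 0.00218), against 2.02% of all genes, and in Hsp90aa1 as well without NRF ZT16 replicate 3 (0.00511). The difference in the 12-h component between the regimens passed in 0 of 10 members by limma (1 at an unadjusted p below 0.05), with the smallest adjusted p of 0.171 in Hsp90ab1, against 0.114% of all genes. More calls under DRF are therefore not shown to be a difference between regimens. The DRF call for Hsp90aa1 was lost without any 1 of 16 libraries (0.0501 to 0.103), without replicate 1, 2 or 4 of every group (0.216 to 0.296) and on deposited values (0.2415), as was the NRF call for Hsp90ab1 on deposited values (0.3203). Without replicate 1 of every group the DRF calls for Hspa1a (0.101) and Hspa1b (0.0685) were lost. Dnajb1 missed the threshold under DRF (adjusted p = 0.0622) and passed without any 1 of 5 libraries (0.0229 to 0.0456).

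**Figure D4:**
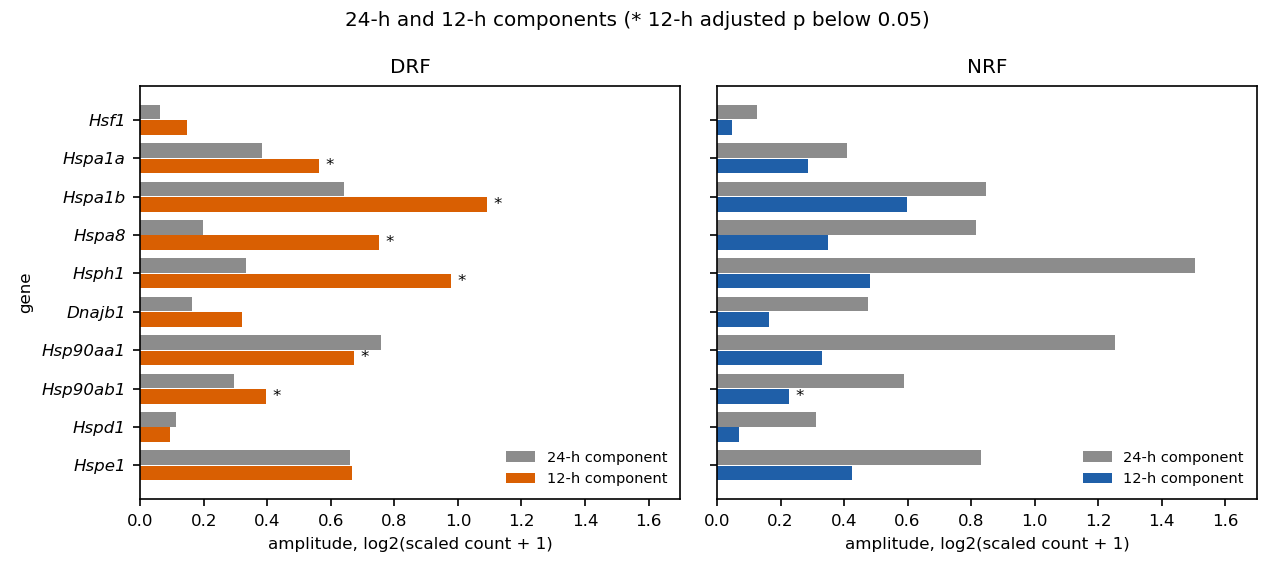
Amplitude of the 24-h component (grey) and the 12-h component (coloured) of log2(scaled count + 1) for each gene (vertical axis), in DRF (left) and NRF (right), from a joint fit over 28 libraries each. A star marks a 12-h component with an adjusted p below 0.05. The 12-h bar is the longer one under DRF in Hspa1b (1.09 against 0.64), and the 24-h bar under NRF (0.85 against 0.60).

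Other chaperone genes were described from 7 lists of 66 genes, of which 65 were tested. The 24-h rhythm differed between regimens in 47 of them, against 38.8% of all genes. At ZT4, 38 were higher under DRF and 3 lower, against 20.3% of all genes called (10.8% higher). At ZT16, 20 were lower under DRF and 4 higher, against 15.1% of all genes (6.37% lower). The same shares apply to the counts of the single lists. All 8 subunits of the TRiC chaperonin, which folds actin and tubulin, were higher at ZT4 under DRF, for instance Tcp1 (24.5 ± 1.303 against 16.3 ± 0.784 scaled counts, log2 difference 0.56 ± 0.07, adjusted p = 6.70e-08) and Cct3 (54.3 ± 4.89 against 35.4 ± 2.62). The 12-h component under DRF passed in 7 of these 8 subunits, against 4.69% of all genes, and under NRF in 0 by limma (2 at an unadjusted p below 0.05), against 2.02%. The difference in the 12-h component between the regimens passed in 0 of the 8 (3 at an unadjusted p below 0.05), with a smallest adjusted p of 0.17, so these counts do not show that the regimens differed. At DRF ZT4 against NRF ZT16, 0 of the 8 differed by limma (0 also at an unadjusted p below 0.05), against 14.6% of all genes. Over all 7 lists, 12 of 65 genes differed in this comparison (7 higher under DRF), and 21 at an unadjusted p below 0.05. They included 6 of 16 genes of the HSP70 list and 3 of 10 of the HSP40 list, but 0 of 13 HSP90 cochaperones (3 at an unadjusted p below 0.05).

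HSP90 cochaperones, which load and release HSP90 clients, had 9 of 13 genes higher and 0 lower at ZT4, and 6 lower and 0 higher at ZT16. Fkbp4, an immunophilin, had 139 ± 16.5 scaled counts at ZT4 under DRF and 64.3 ± 7.47 under NRF. Stip1, which links HSP70 to HSP90, had 179 ± 24.5 and 72.2 ± 13.5, and Ahsa1, which stimulates the HSP90 ATPase, 23.6 ± 3.87 and 13.1 ± 1.11. All 3 passed at ZT4, with adjusted p of at most 1.16e-06. Of the HSP40 family 6 of 10 were higher at ZT4 and 0 lower, led in rhythm by Dnajb6 (67.5 ± 1.49 against 40.03 ± 0.944) and including Dnaja1 (158 ± 14.9 against 44.5 ± 11.8, log2 difference 1.83 ± 0.15).

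Of the HSP70 family and its exchange factors, 8 of 16 were higher and 1 lower at ZT4. Hspa4l, an HSP110 relative of Hsph1, was higher (34.8 ± 8.36 against 14.7 ± 1.83), and the exchange factor Bag4 was lower (25.8 ± 2.04 against 37.6 ± 1.85, log2 difference -0.53 ± 0.07, adjusted p = 7.38e-08). Of 6 small heat shock proteins tested, Hspb1 (14.2 ± 2.81 against 7.04 ± 1.35) and Hspb8 (206 ± 30.2 against 127 ± 25.1) were the 2 that were higher at ZT4. Among the other heat shock factors and their binding proteins, 2 of 4 were higher at ZT4, Hsf4 (3.97 ± 0.396 against 2.33 ± 0.228, adjusted p = 7.49e-05) and Hsbp1, a negative regulator of HSF1 (15.9 ± 0.828 against 13.2 ± 0.741, 0.0308). Hsf4 was the 1 gene of these 4 whose 24-h rhythm differed (3.25e-07).

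Of the mitochondrial chaperones and proteases, 3 of 8 were higher and 2 lower at ZT4. Clpx, the unfoldase of a matrix protease, had the reverse order of the members, with 147 ± 20.9 scaled counts at ZT4 under DRF and 514 ± 59.2 under NRF, and 511 ± 38.9 and 184 ± 23.1 at ZT16. Its log2 differences were -1.81 ± 0.15 (adjusted p = 7.58e-13) and 1.47 ± 0.15 (6.38e-10). Grpel1, the exchange factor of mitochondrial HSP70, and Hspa9, that HSP70 itself, were higher at ZT4 under DRF (41.6 ± 1.86 against 30.8 ± 3.54, and 303 ± 8.89 against 243 ± 12.7).

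**Figure D5:**
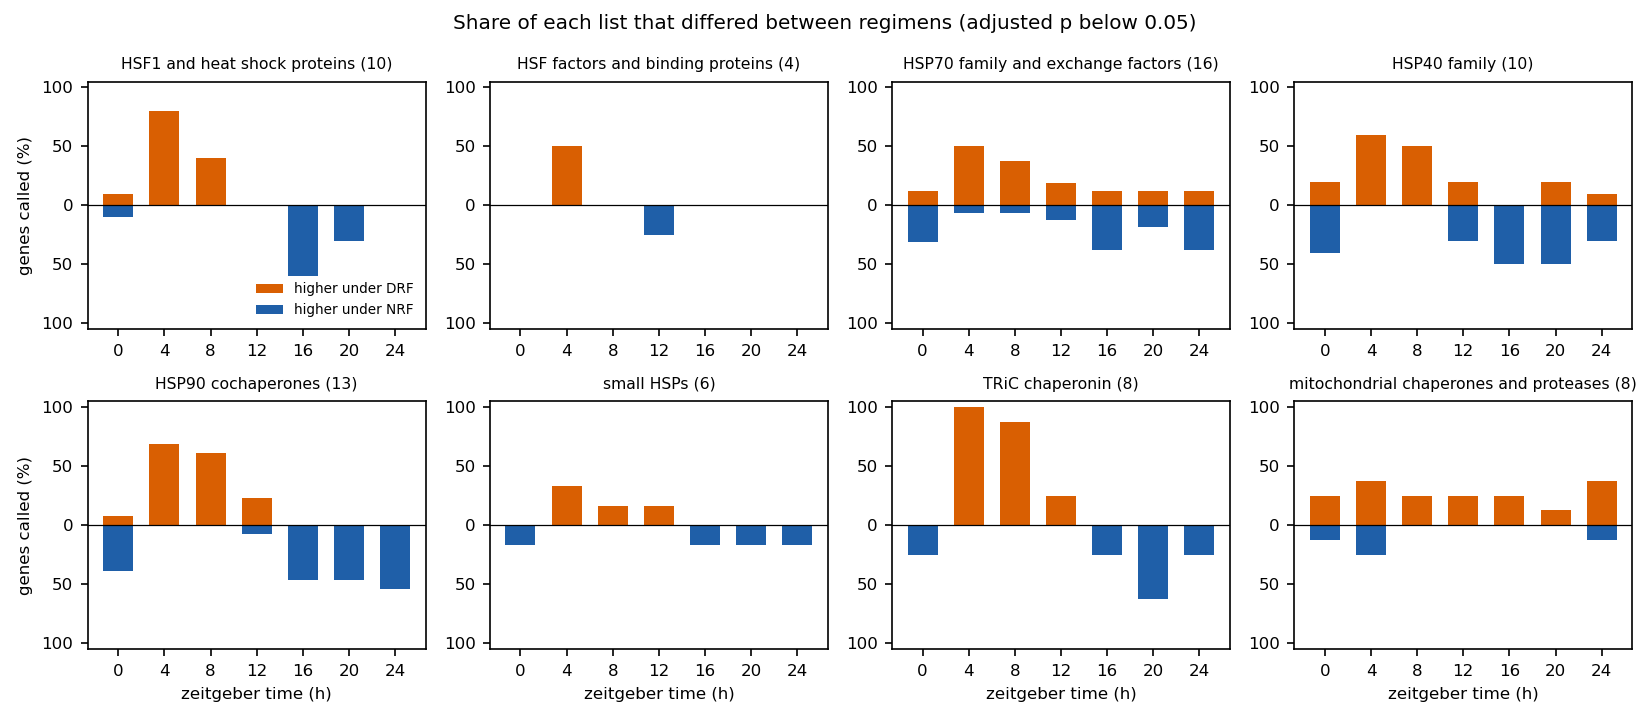
Share of the tested genes of each list (number in brackets) that differed between DRF and NRF at an adjusted p below 0.05 (vertical axis, percent) at each zeitgeber time in hours (horizontal axis), drawn upward in orange where DRF was higher and downward in blue where NRF was higher. The TRiC bar at ZT4 reaches 8 of 8 subunits, and the mitochondrial list holds genes higher under DRF at every time.

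The genes with profiles most like each member were found by Pearson correlation of the 14 group means on the log2 scale, among 6688 genes with a mean of at least 10 scaled counts. This describes likeness only. Closest to Hspa8 was Gm15459 (r = 0.993), which shares sequence with it. Hsph1 was most like P4ha1 (r = 0.968), Chordc1 (r = 0.967) and Ncbp1 (r = 0.957). Hsp90ab1 was most like Ahsa1 (r = 0.981), Cct7 (r = 0.960) and Umps (r = 0.956), and Hsp90aa1 like Fkbp4 (r = 0.969), Cct3 (r = 0.964) and Cct5 (r = 0.957). Chordc1 and Ahsa1 are HSP90 cochaperones, and the Cct genes encode TRiC subunits. Hspa1a and Hspa1b were both closest to Tysnd1 (r = 0.877 and 0.889), and Rcan1, an inhibitor of calcineurin, was among the 3 closest of Hspa1a, Hspa1b and Dnajb1, with means of 112 at DRF ZT4, 15.6 at NRF ZT4, 21.9 at DRF ZT16 and 81.5 at NRF ZT16. Hspd1 was closest to St13 (r = 0.922), Hspe1 to Smarca4 (r = 0.917) and Hsf1 to Nf2 (r = 0.820).

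Replicate libraries correlated with r between 0.94 and 0.987 over 6694 genes in 84 pairs. Hepatocyte markers (8 of 8 detected) summed to between 105789 and 142240.0 scaled counts per library under DRF and between 100451 and 159613 under NRF. The lists of 6 Kupffer cell, 6 sinusoidal endothelium, 6 stellate cell, 4 cholangiocyte and 4 lymphocyte markers were detected in full. The lists of the other cell types summed to 507 to 1204 for Kupffer cells, 330.0 to 463 for sinusoidal endothelium, 609.7 to 902 for stellate cells, 3.61 to 10.5 for cholangiocytes and 14.2 to 34.5 for lymphocytes over all libraries. At ZT4, 2 hepatocyte genes were higher and 1 lower under DRF, 0 of the Kupffer cell and stellate cell genes differed, and 1 gene each of the endothelial, cholangiocyte and lymphocyte lists was lower. At ZT0, 3 of 4 cholangiocyte genes and 1 hepatocyte gene were lower, and 1 gene each of the Kupffer cell and endothelial lists was higher. At ZT8, 2 cholangiocyte and 2 hepatocyte genes were higher and 1 endothelial gene lower, and at ZT12, 2 cholangiocyte genes and 1 hepatocyte gene were higher. At ZT16, 1 cholangiocyte gene and 1 hepatocyte gene were higher and 1 hepatocyte gene lower. At ZT20, 3 of 6 endothelial genes were higher and 2 cholangiocyte genes lower, and at ZT24, 2 of 6 Kupffer cell genes, 2 hepatocyte genes and 1 cholangiocyte gene were lower. The part of these markers in the members' differences was not tested. Some libraries were the highest or lowest of their group for most members. NRF ZT0 replicate 3 was the highest of its group for all 10 members, DRF ZT12 replicate 4 for 9, and DRF ZT0 replicate 1 was the lowest for 8. Others were mixed, such as DRF ZT8 replicate 3, highest for 4 and lowest for 5, and NRF ZT20 replicate 1, highest for 5 and lowest for 4.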

How the data were processed

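Livers of 56 mice were profiled by stranded, ribosomal RNA-depleted sequencing. Per the submitters' processing notes, the authors used CASAVA 1.8, featureCounts 1.5.0-p3, and mm10 and GRCm38.p6. The aligner and the strand setting of the counting were not given in the sources used here. The deposited gene values, named TPM, are treated as a score, because multiplied by the GENCODE vM21 exon length they followed a logarithm of whole counts and not a linear scale, so no count test was run. The deposited values were inverted per library to scaled counts, at 304 to 723 recovered counts per unit. For 22911 of 25415 genes the annotated length gave whole counts (tolerance 0.05), 1 gene could not be rebuilt, and 25414 were tested. Recovered counts summed to between 324.9 and 731.7 times 1000000 per library, and the relation of such a count to a read is unknown, so no counting interval was computed. Transcript and circRNA tables were not used.

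Groups came from the regimen and time labels. log2(scaled count + 1) was fitted with limma 3.58.1 (trend and robust) in R 4.3.3 as 14 group means, as a 24-h cosinor per regimen and as 24-h plus 12-h terms, with two-sided tests, Benjamini-Hochberg adjustment over 25414 genes and a threshold of 0.05. Rhythm within a regimen combined an exact Kendall test against 12 templates with a cosinor F test by Fisher's method (scipy 1.17.1). The combined tests share their data, which makes the combined p too small. Phase shifts have delta-method errors and no p. Promoters and gene symbols came from the reference tables. Scripts were tested on simulated data. All 10 members were named, and from each further chaperone list the 4 genes of smallest adjusted p for the rhythm difference served as the pool of examples. Members and lists were chosen with earlier results of these data known. Alternatives were the values as deposited, pseudocount 0.1, median-of-ratios scaling, a mean scaled count of at least 1, removal of a length trend, a replicate block, other rhythm tests, and leaving out replicates or libraries. Replicate numbers were not taken to pair samples.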

Additional observations from a re-analysis of the deposited data

Results flagged for a closer look

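In 9 of 140 groups of 4 libraries, 1 library stood apart from the rest by more than Dixon's 95% critical value for the gap relative to the range, where chance alone flags about 1 in 20 groups, or 7. The highest libraries were Hspa1a in DRF ZT8 replicate 3 (0.2668 scaled counts), DRF ZT12 replicate 4 (2.131) and NRF ZT12 replicate 4 (0.7678). Hspa1b stood out in NRF ZT0 replicate 3 (3.699) and NRF ZT8 replicate 4 (1.129), Dnajb1 in NRF ZT4 replicate 3 (3.839) and Hsp90aa1 in DRF ZT16 replicate 4 (98.74). The lowest were Hspa1b in NRF ZT24 replicate 1 (0.9862) and Hsp90ab1 in NRF ZT24 replicate 2 (238.9). The low Hsp90aa1 value of NRF ZT16 replicate 3 did not meet this criterion, because the other 3 libraries of its group were themselves spread.

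The 24-h rhythm differed between DRF and NRF by the test of the difference itself (limma, adjusted over all genes) in 9 members. The adjusted p was 0.003282 for Hspa1a, 0.004078 for Hspa1b, 0.01278 for Hspa8, 4.404e-06 for Hsph1, 0.0006988 for Dnajb1, 5.345e-07 for Hsp90aa1, 3.706e-08 for Hsp90ab1, 4.386e-07 for Hspd1 and 0.02578 for Hspe1.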

How the results depend on the processing

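On the values as deposited, the number of members called was 0 in place of 1 for the rhythm-adjusted mean, 0 in place of 1 for a 12-h component under NRF, 2 in place of 0 for ZT24 against ZT0 under NRF, 1 in place of 2 at ZT0, 7 in place of 4 for DRF ZT16 against NRF ZT4, 5 in place of 3 for DRF ZT20 against NRF ZT8 and 1 in place of 4 for rhythms under DRF. The median phase shift was 9.18 h in place of 11.05 h. Because 1 member was rhythmic under DRF on these values, this median includes phases of fits that did not pass, and it is not evidence of a smaller shift. The rhythm-adjusted mean gave 0 also with median-of-ratios scaling and with the length trend removed, which gave 1 for ZT24 against ZT0 under NRF. A mean scaled count of at least 1 gave 1 for DRF ZT4 against NRF ZT16, and either rhythm test alone (rank or cosinor) gave 2 under DRF. The cause of these changes was not tested. The Hspe1 rhythm difference was lost on deposited values (adjusted p = 0.3604) and with pseudocount 0.1 (0.07492).

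Leaving out replicates or single libraries gave 7 to 9 members for the rhythm difference, 0 to 1 for the mean, 6 to 9 and 8 to 9 for times under DRF and NRF, 3 to 7 and 1 to 2 for 12-h components, 0 to 3 and 0 to 1 for ZT24 against ZT0, and 1 to 4 and 8 to 9 for rhythms. At ZT0, 4, 8, 12, 16, 20 and 24 the ranges were 0 to 3, 7 to 9, 3 to 4, 0 to 1, 4 to 7, 2 to 4 and 0 to 2. At 12 h apart, from DRF ZT0 to DRF ZT20, they were 0 to 2, 0 to 2, 1 to 2, 0 to 0, 3 to 6 and 0 to 3. The median shift was 10.3 to 11.5 h. No direction of a called value reversed under any alternative run.

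Same-numbered libraries did not deviate together (28 pairs, r from -0.175 to 0.114, 3 above 0.1). The replicate block left 9 members for the rhythm difference and 8 at ZT4, and 2 in place of 3 for DRF ZT20 against NRF ZT8, where Hspd1 was lost. It also ended the Hspd1 amplitude call (0.0568).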

Other observations

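Of 9 immediate early genes tested, 2 were higher and 1 lower under DRF at ZT4, against 20.3% of all genes called (10.8% higher). Atf3, a stress-responsive transcription factor, had 21.8 ± 5.27 scaled counts at DRF ZT4 and 4.305 ± 0.499 at NRF ZT4 (log2 difference 2.08 ± 0.32, limma adjusted p = 3.31e-06), and 4.18 ± 1.09 at DRF ZT16 and 10.2 ± 3.31 at NRF ZT16 (-1.09 ± 0.32, 0.0164). Junb, a subunit of AP-1, had the opposite order at ZT4, with 2.06 ± 0.384 under DRF and 7.29 ± 2.51 under NRF (-1.39 ± 0.38, 0.006498). The summed level of the 9 genes was 45.3 ± 5.87 at DRF ZT4 and 26.9 ± 1.40 at NRF ZT16, the times at which most heat shock genes were highest. In the other regimen at those times the sum was close to these values, with 40.55 ± 4.195 at NRF ZT4 and 24.32 ± 1.603 at DRF ZT16.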
